A study of Homo sapiens with 3 samples.

Results

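The mRNAs of 8 AP-1 genes, namely JUN, JUNB, JUND, FOS, FOSB, FOSL1, FOSL2 and ATF3, were followed through an RNA pull-down with the RNA-binding protein ZFP36L1. They were taken by gene symbol from the GENCODE 29 annotation, which assigned 44 of the 196354 deposited transcript rows to them, and their estimated counts were summed per gene. Of the 8 genes, 7 were measured, with a mean of at least 10 estimated counts over the 3 libraries, among 14082 such genes in all; FOS was not measured. The source was lysate of J82 cells, an established line from a human bladder cancer, and the bait was wild-type ZFP36L1 fused to glutathione S-transferase (GST), the Ala mutant of ZFP36L1 fused to GST, or GST alone. The cells were grown nearly to confluence, with no treatment named, and the labels do not say which residues were changed to alanine in the mutant. Each bait had 1 library, so replicate error is unknown and no p-value is given.

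AP-1 is a dimeric transcription factor of the basic leucine zipper (bZIP) class. JUN proteins pair with one another or with FOS proteins, FOS proteins need a JUN partner, and ATF3 is a stress-induced relative that pairs with JUN proteins. Many of these genes are transcribed within minutes of a growth or stress signal, and the FOS mRNA is a classic example of an unstable message with AU-rich elements in its 3' untranslated region (3' UTR). Proteins of the ZFP36 family bind such elements, with UAUUUAU as the core site, and promote decay of the bound mRNA.

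The core site, written TATTTAT in the DNA letters of the annotation, was present in the annotated 3' UTR of 7 of the 8 genes and absent from that of JUNB. The stretches below are shown because they hold the site in JUN, JUND and FOSL1, whose values differ in direction, because FOS holds the longer form TTATTTATT, and because JUNB holds only the shorter ATTTA, a stretch chosen after its values were seen. Capitals mark TATTTAT, or ATTTA for JUNB.
JUN: tttgcttatgaaTATTTATaacagcattct
JUNB: aatatatttgtgtATTTAacagggagggga
JUND: tcgattctgcccTATTTATgtttctactcg
FOSL1: gagggcagctgcTATTTATtttcctaaaga
FOS: gtgtttttaattTATTTATtaagatggatt
These are GENCODE 29 transcript sequences, 5′ to 3′, and all lie in 3' UTR exons of GRCh38. The JUN stretch is at chr1:58780819-58780848 on the minus strand, the JUNB stretch at chr19:12793059-12793088 on the plus strand, and the JUND stretch at chr19:18279998-18280027 on the minus strand. The FOSL1 stretch is at chr11:65892272-65892301 on the minus strand and the FOS stretch at chr14:75282059-75282088 on the plus strand.

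TATTTAT was searched on the mRNA strand only, in the most abundant protein-coding transcript of each gene, and every TTATTTATT contains it. FOS and FOSL2 held 2 copies each, 1 of them within TTATTTATT, and JUN, JUND, FOSB, FOSL1 and ATF3 held 1 copy each. Of 11448 measured genes with a 3' UTR, 3553 held TATTTAT, 8.18% held TTATTTATT and 67.9% held ATTTA. Among 3' UTRs within 25% of the length of the JUNB 3' UTR (500 bases), 15.4% held TATTTAT, and within 25% of that of FOSL2 (4864 bases) 71.7% did. The sequences in the annotation and those the authors counted against can differ: the deposited JUN transcript was 3321 bases long and the annotated one 3540.

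The libraries held 19845386 estimated counts for wild-type ZFP36L1, 19153483 for the Ala mutant and 19137867 for GST. Mitochondrially encoded RNAs made up 15.5%, 7.53% and 10.6% of the matched counts in the same order. The GST table is named with a run code unlike that of the others, and run and bait cannot be told apart for it. Of 12 urothelial and epithelial markers, 4 were measured (EPCAM, KRT7, KRT8 and KRT18), with summed levels of 62.6, 1079 and 712 TPM (a length-corrected abundance with the same total in every library) for wild type, mutant and GST; KRT5, KRT19 and UPK3A were at 0 in each. Of 5 mesenchymal markers 4 were measured, with sums of 98.3, 644 and 1012 TPM in the same order. Of 5 leukocyte markers LYZ alone passed, and no erythroid, hepatocyte or endothelial marker did. Each of these last 4 lists summed to at most 0.595 TPM in any library.

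FOSL1 and JUND were the most abundant AP-1 mRNAs in each library, by the deposited TPM, which corrects for transcript length. FOSL1, a FOS protein that lacks the strong activation domain of FOS, stood at 117 TPM with wild-type ZFP36L1, 166 TPM with the mutant and 159 TPM with GST. JUND, the JUN protein least tied to growth signals, stood at 80.2, 119.9 and 150.3 TPM in the same order. Both had their lowest level in the wild-type library.

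JUNB and JUN came next and had their highest level in the wild-type library. JUNB, which in many settings opposes JUN, stood at 70.5 TPM with wild type, 23.5 TPM with the mutant and 19.9 TPM with GST. JUN, the founding member of the family, stood at 37.2, 14.5 and 17.9 TPM in the same order. The JUNB and JUN levels in the wild-type library exceeded those in both other libraries.

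FOSL2, a FOS protein with roles in bone and skin, stood at 9.10 TPM with wild type, 6.98 TPM with the mutant and 11.1 TPM with GST. ATF3, the stress-induced member, stood at 2.66, 0.902 and 1.23 TPM in the same order. FOSB, an early-induced FOS protein, stood at 1.18, 0.408 and 0.784 TPM. ATF3 and FOSB were thus scarce in all libraries and highest with wild type, whereas FOSL2 was highest with GST. FOS itself had 20 estimated counts with wild type, 2 with the mutant and 4 with GST, a mean of 8.67, and no ratio is given for it.

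The order of levels was the same in the 3 libraries: FOSL1, JUND, JUNB, JUN, FOSL2, ATF3, FOSB and FOS. Neighbours in this order had 95% counting intervals (exact Poisson) that did not overlap, except JUNB with JUN and ATF3 with FOSB in the GST library. These intervals, like all others given here, cover counting error only. The 8 genes together summed to 318 TPM with wild type, 332 TPM with the mutant and 360.4 TPM with GST. JUN and JUNB made up 33.8% of that sum with wild type, 11.4% with the mutant and 10.5% with GST. FOSL1 and JUND made up 62.0%, 86.0% and 85.9% in the same order. These groupings follow the directions of the levels given above, so the shares restate them.

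**Figure D1:**
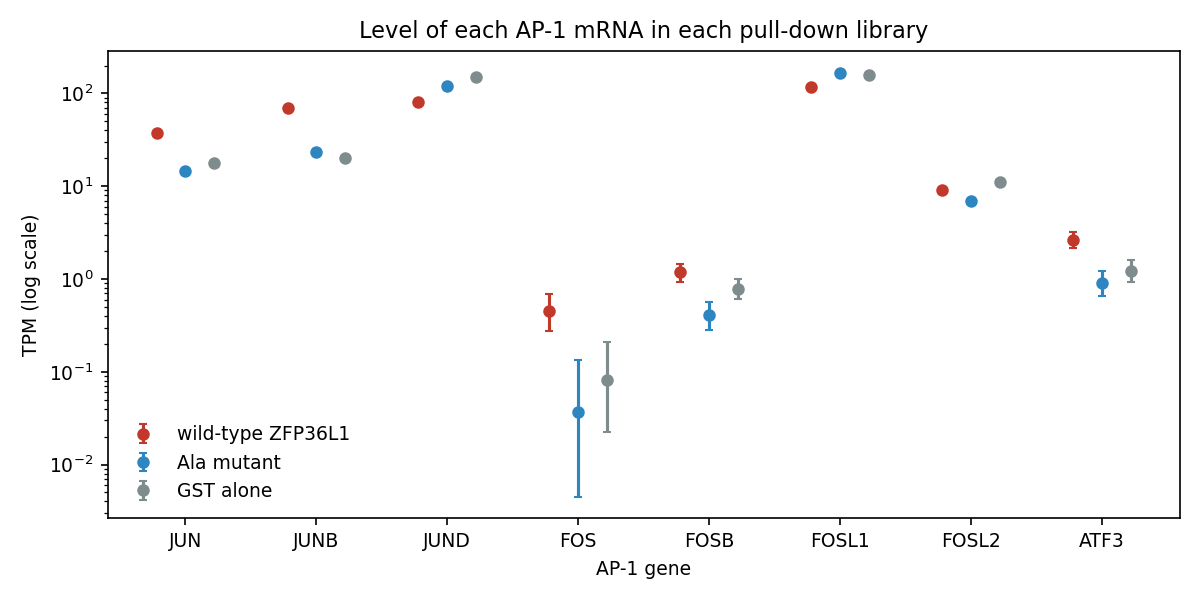
Level of each AP-1 mRNA in TPM on a log axis, with 1 point per library (wild-type ZFP36L1, Ala mutant, GST alone) and exact Poisson 95% intervals of the counts. JUN and JUNB were highest with wild type (37.2 and 70.5 TPM), whereas JUND and FOSL1 were lowest there (80.2 and 117 TPM).

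Wild-type ZFP36L1 was first set beside GST alone, the background of the pull-down. JUNB was higher and JUND lower, and the other 5 measured genes were less than 2-fold apart. JUND changed direction (log2 1.56) when a fit on GC content and length, described further on, was removed. Higher and lower here mean a ratio of 2 or more either way, with a 95% counting interval that excludes 1, after libraries were scaled by TMM (trimmed mean of M values, which takes most genes to be unchanged). By this rule 59.7% of all measured genes were called, 25.5% higher and 34.2% lower, so that 1 higher and 1 lower among 7 were no more frequent than among all genes. The median log2 ratio of the 7 genes was 0.33, against -0.04 for all genes. At a ratio of 1.5, 3 of the 7 were higher (35.0% of all genes) and 2 lower (38.6%). A ratio compares shares of a library, so less of an RNA and more of others cannot be told apart.

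Among the JUN genes, JUNB had 2598 estimated counts with wild type and 800 with GST, which was 3.07-fold higher (log2 1.62, interval 1.5 to 1.73). JUN had 2635 and 1385 counts, a log2 ratio of 0.85 (0.75 to 0.94), which did not reach 2-fold. JUND had 3057 and 6246 counts, which was 2.16-fold lower (log2 -1.11, -1.18 to -1.05). The 3 JUN genes therefore lay on both sides of equality, at the 89.2, 70.2 and 33.7 percentile of all measured genes for JUNB, JUN and JUND.

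Among the FOS genes, FOSL1 had 3298 counts with wild type and 4946 with GST, a log2 ratio of -0.67 (-0.73 to -0.60). FOSL2 had 1159 and 1548 counts, a log2 ratio of -0.50 (-0.61 to -0.39). FOSB had 84 and 63 counts, a log2 ratio of 0.33 whose interval of -0.16 to 0.83 included 0. None of these reached 2-fold, and the FOSB difference was not detectable at this depth. ATF3 had 105 and 52 counts, a log2 ratio of 0.92 (0.44 to 1.44), also short of 2-fold. By the deposited TPM, JUN passed 2-fold (log2 1.03) and JUND did not (log2 -0.90).

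Wild-type ZFP36L1 was next set beside its Ala mutant. JUNB, FOSB and ATF3 were higher with wild type and JUND and FOSL1 were lower, each by 2.02-fold to 2.13-fold. Among all genes 66.1% were called, 30.1% higher and 36.1% lower, and the median log2 ratio was 0.87 for the 7 genes and -0.04 for all. At a ratio of 1.5, 4 of the 7 were higher (37.7% of all genes) and 2 lower (40.2%). This comparison shares the wild-type library with the preceding one, so the values are not independent of it.

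JUNB had 2598 estimated counts with wild type and 1044 with the mutant, which was 2.13-fold higher (log2 1.09, 0.99 to 1.20). JUN had 2635 and 1236 counts, a log2 ratio of 0.87 (0.77 to 0.97), again under 2-fold. JUND had 3057 and 5498 counts, which was 2.10-fold lower (log2 -1.07, -1.13 to -1.01). JUN and JUNB thus lay above equality and JUND below it, as against GST.

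FOSL1 had 3298 counts with wild type and 5700 with the mutant, which was 2.02-fold lower (log2 -1.01, -1.07 to -0.95). FOSB had 84 and 35 counts, which was 2.04-fold higher (log2 1.03, 0.46 to 1.65), and ATF3 had 105 and 43 counts, which was 2.08-fold higher (log2 1.06, 0.54 to 1.61). FOSL2 had 1159 and 1076 counts and a log2 ratio of -0.12 (-0.24 to 0.01), which was 0.06 with libraries scaled to total counts. With libraries scaled to their total estimated counts, neither JUND (log2 -0.90) nor FOSL1 (log2 -0.84) reached 2-fold, while JUN did (log2 1.04). FOSB (log2 0.93) and ATF3 (log2 0.97) fell short of 2-fold with a prior count of 5, and JUNB (log2 0.91) did with single transcripts.

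The Ala mutant, set beside GST, left each measured AP-1 gene within 2-fold. None of the 7 genes was at least 2-fold higher or lower, while 14.1% of all genes were, 9.0% higher and 5.13% lower. Their median log2 ratio was -0.04, against 0.04 for all genes. JUNB was the highest, with 1044 counts for the mutant and 800 for GST (log2 0.52, 0.39 to 0.66). FOSB was the lowest, with 35 and 63 counts (log2 -0.70, -1.35 to -0.09). At a ratio of 1.5 none was higher (18.7% of all genes) and FOSB was lower (13.0%).

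JUN, with 1236 counts for the mutant and 1385 for GST, had a log2 ratio of -0.02 (-0.14 to 0.09). JUND had 5498 and 6246 counts and a log2 ratio of -0.04 (-0.10 to 0.01). For both genes the counting interval included equality. FOSL1 stood at log2 0.35 (0.29 to 0.40), FOSL2 at log2 -0.38 (-0.50 to -0.27) and ATF3 at log2 -0.13 (-0.75 to 0.48).

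**Figure D2:**
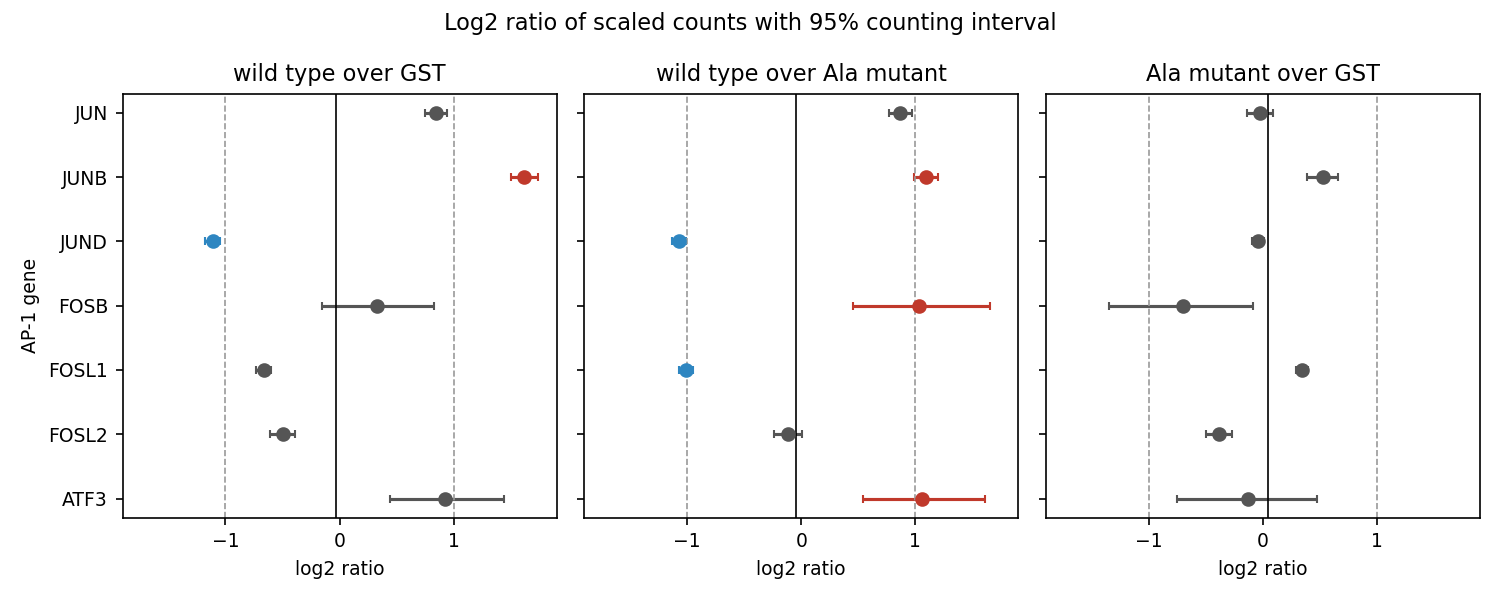
Log2 ratio of TMM-scaled estimated counts for the 7 measured AP-1 genes in each comparison, with 95% counting intervals; red is at least 2-fold higher, blue at least 2-fold lower, dashed lines mark 2-fold and the solid line the median of all genes. JUNB lies at 1.62 and JUND at -1.11 for wild type over GST, and no gene passes 2-fold for mutant over GST.

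The balance between AP-1 genes within a library does not depend on how libraries are scaled to each other. The number of JUNB counts per JUND count was 0.850 with wild type, 0.190 with the mutant and 0.128 with GST. The exact odds ratio was 6.63 (6.06 to 7.27) for wild type over GST, 4.47 (4.11 to 4.87) for wild type over mutant and 1.48 (1.34 to 1.64) for mutant over GST. JUNB thus took a larger place beside JUND with wild type than with either other protein. This pair joins the measured AP-1 genes with the highest and the lowest ratio of wild type over GST, so its odds ratio restates the ratios given above.

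JUN counts per JUND count were 0.862 with wild type, 0.225 with the mutant and 0.222 with GST, an odds ratio of 3.89 (3.59 to 4.21) for wild type over GST and of 1.01 (0.930 to 1.10) for mutant over GST. FOSL1 counts per JUN count were 1.25, 4.61 and 3.57, an odds ratio of 0.351 (0.324 to 0.379) for wild type over GST. By contrast, JUN counts per ATF3 count were 25.1, 28.7 and 26.6, an odds ratio of 0.942 (0.658 to 1.34) for wild type over GST. Of the 21 pairs of measured genes, 19 had an interval that excluded 1 for wild type over GST, 15 for wild type over mutant and 14 for mutant over GST. No interval was adjusted for the number of pairs. Pairs of other genes were not counted in this way, and 59.7% of all genes were called for wild type over GST. The pair counts therefore show nothing particular to AP-1 genes. These ratios of counts were not corrected for GC content or transcript length. The fit described further on gave log2 -1.23 for JUN, -2.48 for JUNB and -2.68 for JUND, wild type over GST. The part of GC content and length in the odds ratios was not tested.

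Nearly all counts of each gene fell on few transcripts. JUN and JUNB each had 1 transcript in the tables, and JUND and FOS each had counts on 1. The counted transcripts of JUN, JUNB and JUND all have a single exon. For FOSL1, the transcript ENST00000448083, of 1427 bases, took 98.7% of the gene's counts with wild type, 91.0% with the mutant and 91.0% with GST. The longer FOSL1 transcript ENST00000312562, of 1669 bases, had 42.7 estimated counts with wild type, 513 with the mutant and 429 with GST. The longer FOSL2 transcript ENST00000264716 was listed at 0 with wild type and had 44.6 estimated counts with the mutant and 96.6 with GST. The longer ATF3 transcript ENST00000341491 went the other way, with 27.1 estimated counts with wild type, 13.5 with the mutant and 0 with GST. The second transcripts of FOSL1 and FOSL2 thus had their fewest counts with wild type and that of ATF3 its most, but the split between overlapping transcripts is an estimate of the counting program, with no error given.

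Other genes could share reads with 2 of the 7. The JUNB transcript shares 259 bases with exons of HOOK2 on the opposite strand, and 12.8% of its 31-base words occur there; whether the counting used strand is not given in the sources used here. HOOK2 had 14 counts with wild type, 198 with the mutant and 167 with GST, fewer than JUNB in each library. The pseudogene FOSL1P1 holds 8.02% of the 31-base words of FOSL1 and had 0 counts in each library.

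The AP-1 genes differ in base composition, and across all genes the ratios moved with it. The Spearman correlation of the wild type over GST ratio with transcript GC content was -0.59 across 14081 genes, which are not independent replicates. JUND (69.7% GC) and JUNB (64.9%) were richer in GC than 99.7% and 97.2% of the measured genes. JUN (56.7%), FOSB (56.6%), FOSL1 (57.5%) and FOSL2 (50.8%) also exceeded the median of 48.0%, and ATF3 (47.9%) lay at it. The part of GC content in the differences was not tested.

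A cubic curve in GC content and log2 length, fitted over all genes, gave a log2 ratio of wild type over GST of -2.48 for JUNB and -2.68 for JUND, so JUNB lay 4.10 and JUND 1.56 above the fit. JUN lay 2.08, FOSB 1.54, ATF3 1.09 and FOSL1 1.08 above it, and FOSL2 lay at -0.33. With the fit removed, 6 of the 7 genes were at least 2-fold higher with wild type than with GST and none was lower, where 22.0% of all genes were higher and 21.2% lower. The same 6 genes were higher over the mutant, where 23.1% of all genes were higher and 23.5% lower. For mutant over GST, none was higher (3.71% of all genes) and JUND was lower (4.3%). JUND and FOSL1 thus change direction with this fit, and JUNB is higher with it and without it. The counting intervals were only shifted by the fitted value, so these calls carry no error of the curve. JUND and JUNB lie at its GC-rich end, and how well the curve holds there was not tested.

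**Figure D3:**
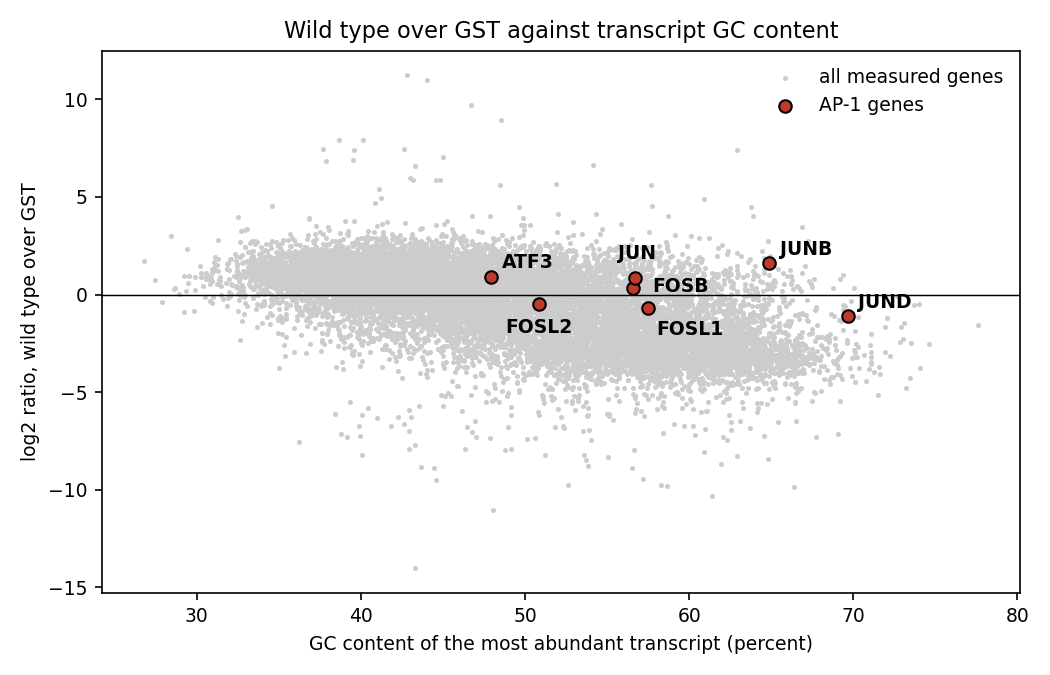
Log2 ratio of wild type over GST against GC content of the most abundant transcript (percent), with 1 grey point per measured gene and AP-1 genes in red. JUNB (64.9% GC, log2 1.62) and JUND (69.7% GC, log2 -1.11) lie at the GC-rich end, where most genes lie below 0.

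**Figure D4:**
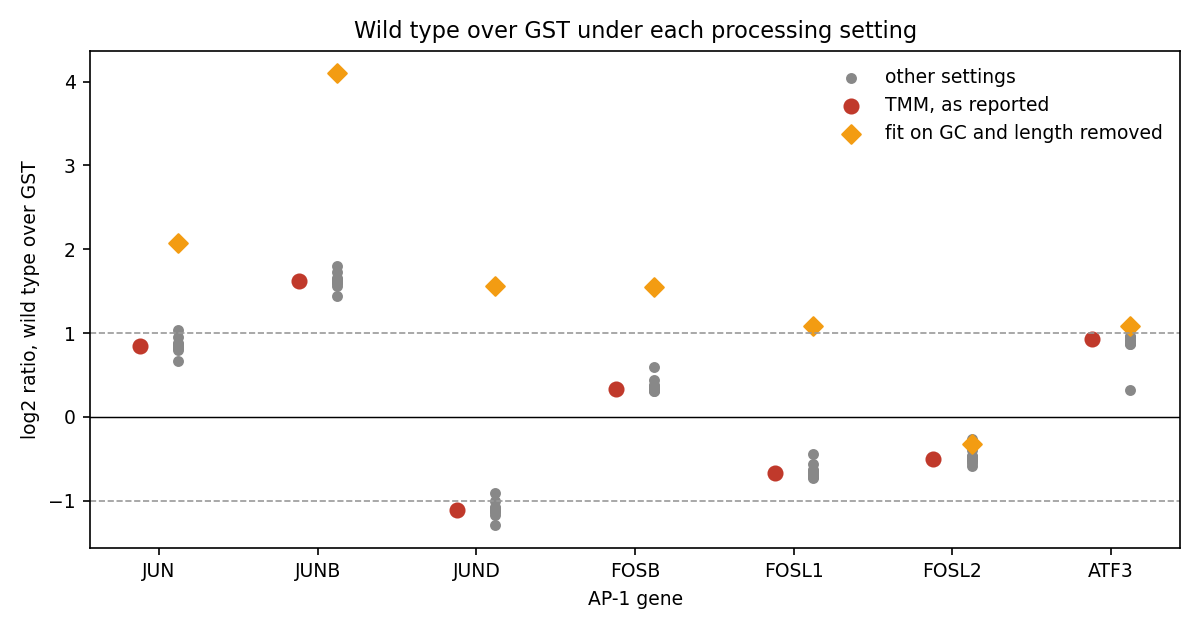
Log2 ratio of wild type over GST for the 7 measured AP-1 genes under each processing setting; red is the TMM value, grey the other settings and orange diamonds the values after removal of the fit on GC content and length. JUND stands at -1.11 with TMM and at 1.56 with the fit removed, and FOSL1 at -0.67 and 1.08.

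AP-1 genes with TATTTAT lay on both sides of equality under TMM scaling. JUNB, the gene with the highest ratio of wild type over GST, was the only member without TATTTAT in its annotated 3' UTR, and JUND and FOSL1, which hold 1 copy, were under 1. Across the 11448 measured genes with a 3' UTR, the median log2 ratio of wild type over GST was 0.94 with TATTTAT and -0.68 without. Genes with and without the site were not matched for 3' UTR length or GC content, and these medians were not taken with the fit removed. All 6 measured AP-1 genes that hold the site lay below the median of genes with it, the nearest being ATF3 (0.92) and JUN (0.85), and JUNB lay above the median of genes without it. With the fit on GC content and length removed, 5 of those 6 lay above the fit, JUND (1.56) and FOSL1 (1.08) among them, as did JUNB (4.10). That JUNB has no match says only that these letters are not in this 3' UTR as annotated.

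The genes around AP-1 held members on both sides. Of 26 other bZIP factors, many of them partners of AP-1 proteins, 22 were measured, and against GST wild type had 9 of them higher and 5 lower, with a median log2 ratio of 0.59, where 25.5% of all genes were higher and 34.2% lower and their median was -0.04. The median of the 22 factors was 0.03 with the fit on GC content and length removed, as was that of all genes. ATF5 had 143 counts with wild type and 2301 with GST (log2 -4.09), and BATF3, a partner of JUN proteins in immune cells, had 53 and 499 (log2 -3.31). ATF4, the main effector of the integrated stress response, had 5474 and 13387 counts (log2 -1.37). With the fit removed, ATF5 stood at log2 -2.18, BATF3 at -1.50 and ATF4 at -0.26. CEBPB, a GC-rich gene like JUNB and JUND, had 3603 and 1436 counts and was higher (log2 1.24), as was JUNB, whereas JUND was lower. With the fit removed CEBPB stood at log2 3.81. Over the mutant, 10 were higher and 5 lower (30.1% and 36.1% of all genes), and ATF7, a close relative of ATF2, was farthest apart, with 1686 counts for wild type and 75 for the mutant (log2 4.26). For mutant over GST, where 9.0% of all genes were higher and 5.13% lower, DDIT3, a stress-induced bZIP factor, was higher (log2 1.01) and ATF7 was lower (log2 -2.92). With the fit removed, DDIT3 stood at log2 0.73 and ATF7 at -2.74 in that comparison.

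Of 20 kinases and factors that induce FOS and JUN, all were measured. Against GST, wild type had 9 higher and 5 lower, with a median log2 ratio of 0.98, beside 25.5% and 34.2% of all genes and their median of -0.04. The median of the 20 genes was 0.25 with the fit on GC content and length removed, beside 0.03 for all genes. The JUN N-terminal kinase MAPK9 had 3988 counts with wild type and 834 with GST (log2 2.17), and the kinase MAP2K1, which activates ERK, had 5637 and 1364 (log2 1.96). Its relative MAP2K2 was lower, with 192 and 2139 counts (log2 -3.56), as was the ERK-activated kinase RPS6KA1, with 119 and 934 (log2 -3.05). The ERK pathway genes MAP2K1 and MAP2K2 thus lay on opposite sides. With the fit removed, MAPK9 stood at log2 1.41, MAP2K1 at 2.22, MAP2K2 at -0.73 and RPS6KA1 at -1.38. Over the mutant, 10 were higher and 5 lower, beside 30.1% and 36.1% of all genes. For mutant over GST (9.0% and 5.13% of all genes), MAP2K2 was higher (log2 1.17) and the upstream kinases MAP3K1 (log2 -1.24) and MAP3K5 (log2 -1.32) were lower. With the fit removed, these 3 stood at log2 0.31, -0.54 and -1.09 in the same order.

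Of 8 genes for turnover of JUN and FOS proteins, all were measured. Against GST, wild type had 3 higher and 1 lower, with a median log2 ratio of 0.55, beside 25.5% and 34.2% of all genes and their median of -0.04. The median of the 8 genes was 0.22 with the fit on GC content and length removed, beside 0.03 for all genes. ITCH, a ubiquitin ligase for JUN and JUNB, was higher, with 2378 counts for wild type and 724 for GST (log2 1.63), as was FBXW7, which recognises phosphorylated JUN (log2 1.12). The ligase adaptor DDB1 was lower, with 707 and 3561 counts (log2 -2.41). With the fit removed, ITCH stood at log2 0.39, FBXW7 at 0.05 and DDB1 at -1.22. The deubiquitinase USP28 had 31 counts with wild type, 187 with the mutant and 0 with GST; against a floor of 3 counts in the GST library its log2 ratio was at least 3.29 for wild type and at least 6.10 for the mutant. With the counting error of both libraries, the lower 95% limits of these log2 ratios were 2.90 and 5.79. Over the mutant, ITCH (log2 2.22) and FBXW7 (log2 1.61) were higher and DDB1 (log2 -2.94) and USP28 (log2 -2.80) lower, beside 30.1% and 36.1% of all genes. The median of the 8 genes over the mutant was below equality, at log2 -0.35, beside -0.04 for all genes. With the fit removed it was -0.60, beside -0.005 for all genes. For mutant over GST, USP28 alone of the 8 was higher and none was lower (9.0% and 5.13% of all genes).

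Of 22 genes known as targets of AP-1, 16 were measured. Against GST, wild type had 6 higher and 5 lower, with a median log2 ratio of 0.60, beside 25.5% and 34.2% of all genes and their median of -0.04. The median of the 16 genes was also 0.60 with the fit on GC content and length removed, beside 0.03 for all genes. IL6, an inflammatory cytokine, had 1860 counts with wild type and 321 with GST (log2 2.45). The chromatin protein HMGA1 was lower, with 3512 and 42292 counts (log2 -3.67), as were the protease inhibitor TIMP1, with 218 and 2598 (log2 -3.65), and the haem-degrading enzyme HMOX1, with 609 and 5382 (log2 -3.22). Over the mutant 8 were higher and 6 lower (30.1% and 36.1% of all genes), and for mutant over GST none was 2-fold apart, where 14.1% of all genes were. None of these lists was tested against other genes.

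**Figure D5:**
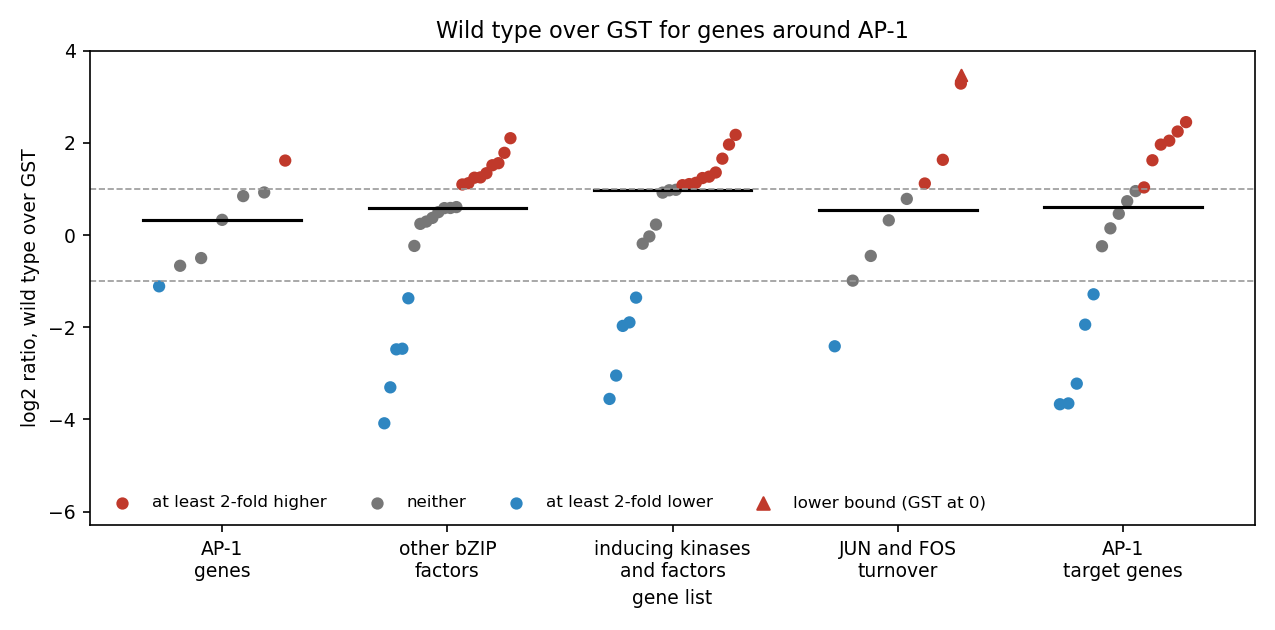
Log2 ratio of wild type over GST for the measured genes of each list, with 1 point per gene in order of its value, a black line at the median and dashed lines at 2-fold; the triangle marks USP28, plotted at a lower bound because it had 0 counts with GST. The AP-1 genes span -1.11 to 1.62, and the other bZIP factors reach from -4.09 for ATF5 to 2.10.

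Genes with nearly the same pair of log2 ratios, wild type over GST and mutant over GST, were listed by Euclidean distance over these 2 ratios from 3 libraries, among 10157 protein-coding genes with a mean of at least 50 counts. The nearest to JUNB were SLC35B1 (distance 0.015) and FZD4 (0.036). The nearest to JUN were GPX8 (0.013) and SETD3 (0.013), and the nearest to JUND were PADI2 (0.0077) and LIPT1 (0.021). ANAPC4 (0.0020) and LAT2 (0.028) were nearest to FOSL1, and TSPAN14 (0.011) and RPF2 (0.024) to FOSL2. LDLRAD3 (0.022) and TTC13 (0.025) were nearest to FOSB, and UTP15 (0.014) and FAM200A (0.016) to ATF3. No AP-1 gene was among the 2 nearest genes of another. With 2 places per gene among 10157 this was likely beforehand, and it does not show whether AP-1 genes move together.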

How the data were processed

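RNA recovered with wild-type ZFP36L1, the Ala mutant and GST was sequenced in 1 library each. The submitters' processing notes name kallisto, DESeq2 and the hg19 build. Versions, annotation and what DESeq2 was used for are not given. The deposited tables hold kallisto's estimated count per transcript, which is not normalized, and the TPM that the authors' pipeline derived from it, which is corrected for transcript length and scaled to one fixed total per library. Transcripts were joined by identifier to GENCODE 29 (GRCh38), which matched 181857 of 196354 (92.6%). Summing gave 52992 genes, whose estimated counts were rounded. Genes with a mean of at least 10 counts were scaled with TMM (edgeR 4.0.16), and 0.5 was added as a prior count before log2 ratios were taken. Intervals are exact Clopper-Pearson 95% intervals on the split of both libraries' counts. The ratios were tested on simulated Poisson counts in which few genes changed and no trend with GC content was built in. Such counts cannot show how the scaling behaves in these data, where most genes were called for wild type over GST. With 1 library per pull-down no p-value was computed. Sequences are those of GENCODE 29. The members, lists and rules were chosen with earlier results of these data known. From each list at most 4 genes per comparison were named, those with the largest ratios or the most counts, along with the 2 genes nearest to each member. Alternatives were scaling by DESeq2 1.42.0, by total counts or by totals that leave out abundant genes, deposited TPM plus 0.5, no minimum or 100 counts, a prior count of 5, protein-coding or single transcripts, a fit on GC content and length, and a ratio of 1.5.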

Additional observations from a re-analysis of the deposited data

How the results depend on the processing

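JUNB stayed at least 2-fold higher for wild type over GST under all 10 alternatives that gave it a value, at log2 1.44 to 4.10. Removal of the fit on GC content and length reversed JUND over GST (log2 1.56) and over the mutant (log2 2.59) and FOSL1 over the mutant (log2 1.19). For wild type over GST, totals without abundant genes, TPM and no minimum count moved the number of higher AP-1 genes from 1 to 2. With no minimum count 8 members were counted, and the gene added was FOS, which was not measured. The number moved to 3 at a ratio of 1.5 and to 6 with the fit removed. The number of lower genes moved from 1 to 0 with TPM and with the fit removed, and to 2 at a ratio of 1.5. For wild type over mutant the number of higher genes moved from 3 to 1 with a minimum of 100 counts, a prior count of 5, protein-coding transcripts (JUNB each time) and single transcripts (ATF3). It moved to 4 with total counts, totals without abundant genes, no minimum count (FOS again the gene added) and a ratio of 1.5. With the fit removed it moved to 6, and TPM kept 3 with JUN in place of FOSB. The number of lower genes moved from 2 to 1 with DESeq2 size factors and with no minimum count, and to 0 with total counts, totals without abundant genes, TPM and the fit removed. For mutant over GST the number of lower genes moved from 0 to 1 with the fit removed and at a ratio of 1.5. A minimum of 100 counts left 5 members, without FOSB and ATF3. Protein-coding transcripts held 100% of the counts of FOSB, ATF3 and JUNB, so for these genes that setting changed only the scaling. JUNB had 1 transcript, so single transcripts also left its counts as they were. In the other cases the cause was not tested. Totals without abundant genes moved the median of all genes by 0.11 for wild type over GST, 0.32 for wild type over mutant and -0.21 for mutant over GST. Among all genes they turned the share of higher among called genes for mutant over GST to 38.6%, against 63.7% with TMM. No paired analysis was possible because each pull-down had 1 library, and for the same reason none could be left out. FOSB, ATF3 and FOS, with the fewest counts, have the widest intervals.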
